A study of Mus musculus and Homo sapiens with 9 samples.

Results

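Replication-dependent histone genes were taken from 2 gene count tables, 1 of human J.gamma1 leukemia cells and 1 of mouse splenic T cells, by their symbols. The rule kept the human genes named H1-1 to H1-5 or with the stems H2AC, H2BC, H3C and H4C followed by a number, and the mouse genes whose older symbols begin with Hist1h to Hist4h. It found 131 genes among 107684 rows, of which 64 of 64252 were human and 67 of 43432 were mouse, and 3 of the mouse genes are annotated as pseudogenes. A further 4 human and 3 mouse annotated members carried identifiers without a row and were not analysed here. The human members comprised 5 H1, 15 H2A, 18 H2B, 11 H3 and 15 H4 genes, and the mouse members comprised 6 H1, 20 H2A, 16 H2B, 12 H3 and 13 H4 genes. The J.gamma1 line is a derivative of Jurkat T-cell acute lymphoblastic leukemia (T-ALL) cells, and it carried either a control hairpin (shNC, n = 2) or a hairpin against IRF2BP2 (shIRF2BP2, n = 2), both delivered by lentivirus with puromycin selection. The mouse libraries came from CD3+ T cells of spleens that were Wild type by label (n = 3) or Irf2bp2 KO (n = 2). In the study's methods the knockout animals were Vav-iCre+/-;Irf2bp2fl/fl, with the recombinase acting throughout the hematopoietic lineage, and the controls carried the same floxed alleles without it, so the deletion is not limited to T cells. Mice of both genotypes were killed at 6 weeks of age for flow cytometry, and the age of the sequenced animals is not stated separately. Which IRF2BP2 hairpin was sequenced and whether the J.gamma1 replicates were separate cultures were not given in the sources used here. p-values therefore measure the spread between these libraries, which may be technical.

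Replication-dependent histone genes supply the core histones H2A, H2B, H3 and H4 and the linker histone H1 that package newly copied DNA, and they are transcribed mainly in S phase. Their mRNAs are unusual in that most end in a conserved stem-loop instead of a poly(A) tail. The stem-loop is bound by SLBP, the U7 small nuclear ribonucleoprotein directs the cut just downstream of it, and NPAT with CASP8AP2 gathers the genes in nuclear histone locus bodies. Some of these genes also make longer, polyadenylated transcripts, chiefly in cells that have left the cycle. The libraries were built with a TruSeq RNA kit, which selects polyadenylated RNA, so the counts below bear on whatever part of the histone mRNA was captured in that way and not on its total amount.

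The stem-loop was read from annotated transcripts (GENCODE v44 on hg38 and vM21 on mm10) as a 16-base word that begins with GG, ends with CC and has 6 paired bases around a loop of T, T, T and any base. It was present in 61 of 64 human members and in 42 of 67 mouse members, and many of the 25 mouse members without it have models that stop with the coding sequence. Within the last 200 bases of a transcript the word occurred in 71 of 19676 human protein-coding genes (0.36%), 64 of them annotated members, and in 27 of 21877 mouse protein-coding genes (0.12%), 25 of them annotated members. The lines below show the word in capitals with up to 5 bases on each side. The genes were picked from the H1, H2A, H2B and H4 classes to set their words side by side, and are not a ranking by level. They include the only member called in either comparison, Hist2h2aa1, and its near-identical neighbour Hist2h2aa2.
H1-2: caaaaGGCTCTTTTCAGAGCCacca
H2BC12: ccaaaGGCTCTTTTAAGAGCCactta
H2AC6: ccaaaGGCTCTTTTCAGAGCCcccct
H2AC20: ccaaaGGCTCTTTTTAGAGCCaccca
H4C9: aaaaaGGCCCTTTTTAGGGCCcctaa
Hist1h1c: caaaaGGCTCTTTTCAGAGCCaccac
Hist3h2a: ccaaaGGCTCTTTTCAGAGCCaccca
Hist1h4i: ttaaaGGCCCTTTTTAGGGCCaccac
Hist2h2aa1: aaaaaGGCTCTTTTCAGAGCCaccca
Hist2h2aa2: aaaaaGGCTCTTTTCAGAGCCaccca

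The word separated the H4 genes from the other classes. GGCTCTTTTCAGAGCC was found in 36 human and 24 mouse members, none of them an H4 gene, and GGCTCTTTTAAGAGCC in 8 human and 6 mouse members, again none of them an H4 gene. The H4 members carried words of their own, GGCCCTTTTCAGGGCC in 10 human and 7 mouse genes and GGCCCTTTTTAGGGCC in 4 human and 2 mouse genes. In all there were 7 distinct words in the human members and 6 in the mouse members.

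Most members lay in a few clusters. Of the human genes, 52 were on chromosome 6, within chr6:25723397-27893891 (hg38), 11 on chromosome 1 and 1, H4C16, on chromosome 12. On chromosome 1, 9 lay within chr1:149782689-149887965, and H2AC25 and H2BC26 lay apart at chr1:228434777-228463104. Of the mouse genes, 54 were on chromosome 13, where 53 lay within chr13:21715763-23934851 and the pseudogene Hist1h2al lay apart at chr13:51202727-51203065, 9 on chromosome 3 within chr3:96219865-96269141 (mm10), 3 on chromosome 11 and 1 on chromosome 6. Promoter windows from 250 bases before to 50 bases after each start were searched on both strands for the CCAAT box, the TATA word TATAAA, the octamer ATTTGCAT and the words TTTGGCGC and TTTCGCGC of the kind that E2F factors bind, none of which contains another. CCAAT was present in 54 of 64 human member windows (84.4%, against 36.0% of all 20046 protein-coding gene windows) and in 49 of the 58 mouse members matched to a RefSeq promoter on GRCm38 (84.5%, against 39.0% of 17492). TATAAA was present in 43 human (67.2%, against 10.8%) and 35 mouse windows (60.3%, against 13.3%). The octamer, a known element of H2B promoters, was present in 26 human windows (40.6%, against 1.7%), of which 13 were among the 18 H2B genes, and in 11 mouse windows (19.0%, against 1.7%), of which 4 were among the 13 matched H2B genes. TTTCGCGC occurred in 14 human (21.9%, against 0.6%) and 9 mouse windows (15.5%, against 0.4%), while TTTGGCGC occurred in 0 of both. The 150 bases before the start are printed for the linker histone gene that led each table by mean level, H1-2 at chr6:26056471-26056620 (hg38, minus strand) and its mouse counterpart Hist1h1c at chr13:23738657-23738806 (mm10, plus strand), with the words found in capitals.
H1-2: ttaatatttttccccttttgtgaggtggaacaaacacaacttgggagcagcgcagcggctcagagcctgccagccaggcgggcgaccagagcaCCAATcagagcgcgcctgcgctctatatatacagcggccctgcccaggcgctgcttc
Hist1h1c: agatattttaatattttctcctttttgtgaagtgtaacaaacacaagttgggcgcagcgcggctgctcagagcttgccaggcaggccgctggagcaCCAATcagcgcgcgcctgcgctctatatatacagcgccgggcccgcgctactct

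The libraries held 26648204 to 31120236 counts in J.gamma1 cells and 16668577 to 37177523 in mouse T cells, where Wild type replicate 3 was the shallowest and the other 4 held at least 35032688. Levels are given as CPM, the count per library size after scaling of the sizes by the TMM method, and a count of 0 allows up to 0.116 CPM in the shallowest J.gamma1 library and up to 0.188 CPM in Wild type replicate 3, for counting error only. IRF2BP2 stood at 204 and 199 CPM in the shNC libraries and at 79.0 and 93.8 CPM in the shIRF2BP2 libraries (edgeR log2 fold change -1.22, SE 0.13, adjusted p = 0.0023). Irf2bp2 had 4145, 4594 and 1915 counts in the Wild type libraries and 0 in both knockout libraries. The T cell markers CD3D, CD3E, CD3G, CD2, CD5, LCK, TRAC and CD247 were detected in all 9 libraries, and 8 of the 8 passed the filter in each table.

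In J.gamma1 cells the members were barely represented. Their summed counts were 480 and 569 in the shNC libraries and 716 and 704 in the shIRF2BP2 libraries, or 0.0018% (exact binomial 95% interval 0.00164% to 0.00197%), 0.00183% (0.00168% to 0.00198%), 0.00237% (0.0022% to 0.00255%) and 0.00235% (0.00218% to 0.00253%) of all counts. These intervals cover counting error only and not the spread between replicates. Of the 64 genes, 12 had no count in any library, 13 more had fewer than 10 counts over all 4 libraries, and 26 reached 10 counts in at least 1 library. The median member stood at 0.134 CPM, and the 10 members of highest level held 60.4 to 64.8% of the members' CPM in each library. Histone genes of the replication-independent kind were far better represented in the same libraries. Per kb of annotated exon, the highest member, H2BC12, reached 4.61 CPM, against 81.8 CPM per kb for H3-3B, which codes for the replacement histone H3.3, and 241 CPM per kb for H2AZ1, which codes for the variant H2A.Z, and 9 of the 13 variant histone genes lay above H2BC12.

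H1-2, a linker histone gene, had the highest mean level, with 1.58 and 2.87 CPM in the shNC libraries and 3.19 and 2.51 CPM in the shIRF2BP2 libraries. H2BC12 had 2.28 and 2.29 CPM in shNC and 1.89 and 1.83 CPM in shIRF2BP2. H2AC6 had 1.58 and 1.26 CPM in shNC and 2.37 and 2.14 CPM in shIRF2BP2. The shNC libraries alone differed by more for H1-2 than the groups did, whereas for H2BC12 both knockdown libraries lay below, and for H2AC6 both lay above, the controls. H2AC25, an H2A gene on chromosome 1, had 1.31 and 1.22 CPM in shNC and 2.1 and 1.87 CPM in shIRF2BP2. H2BC5 had 0.772 and 0.870 CPM in shNC and 1.68 and 1.46 CPM in shIRF2BP2. The remaining members of the 10 highest, H2AC11, H2BC11, H2BC21, H2BC4 and H2AC20, lay between 0.232 and 1.59 CPM in every library. Compared per kb, the leading gene without a near-identical copy was H2BC12 among the H2B genes (4.61 ± 0.014 CPM per kb, SD, n = 2 shNC libraries), H1-2 among the H1 genes (3.05 ± 1.24), H4C9 among the H4 genes (1.89 ± 0.197), H2AC11 among the H2A genes (1.35 ± 0.525) and H3C11 among the H3 genes (0.359 ± 0.145). In this order H2BC12 and H1-2, and likewise H4C9 and H2AC11, differed by little more than the SD of the more variable gene.

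**Figure D1:**
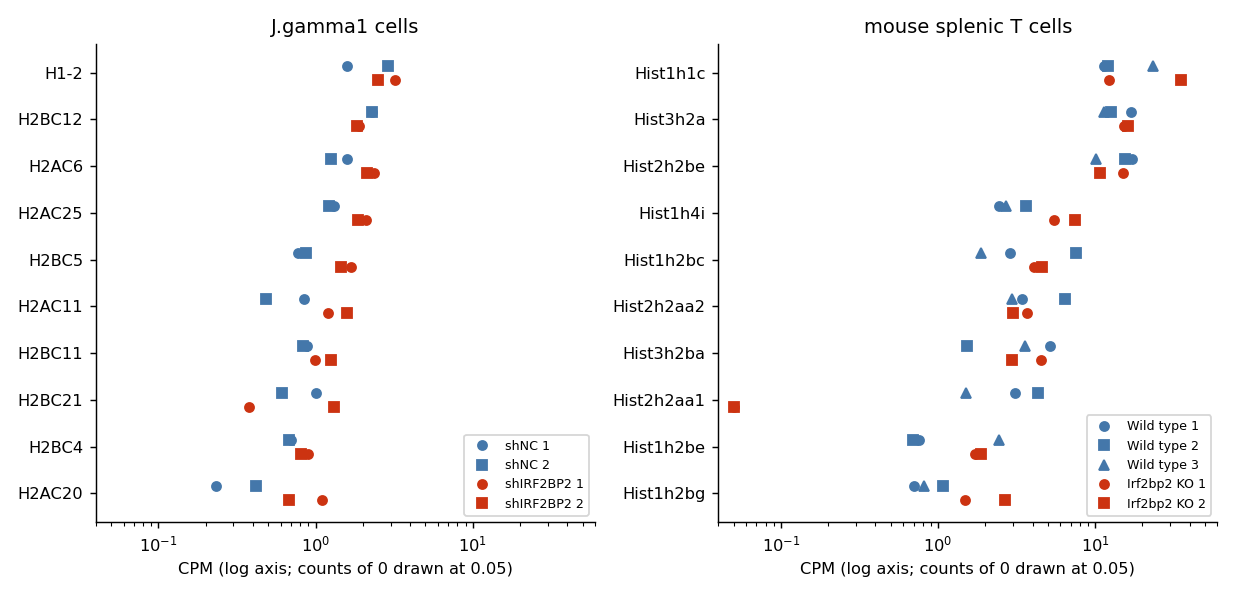
CPM (log axis) of the 10 members of highest mean level in each table, with 1 symbol per library, controls in blue and IRF2BP2-depleted libraries in red. In J.gamma1 cells all points lie between 0.232 and 3.19 CPM, and in mouse T cells Hist1h1c reaches 35.4 CPM in Irf2bp2 KO replicate 2 while Hist2h2aa1 has a count of 0 in both knockout libraries, drawn at 0.05.

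Annotated transcripts that run past the stem-loop were compared with those that end at it. A longer transcript was one that reached more than 100 bases past the word, or that lacked the word and was more than 100 bases longer than the transcript with it. It was annotated for 16 human members, while 45 had none and 3 had no word. The longer group held 42.3% of the members' CPM in the shNC libraries and supplied 11 of the 19 members that passed the filter on low counts. Its median level was 0.33 CPM against 0.0902 CPM for the members that end at the stem-loop, whereas per kb the order turned, with 0.156 against 0.191 CPM per kb, since the longer models also contain more sequence to count. The 2 members of highest level, H1-2 and H2BC12, end 4 and 5 bases after the stem-loop in every model with the word, and H2AC6 has a model that runs 1128 bases past it.

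**Figure D2:**
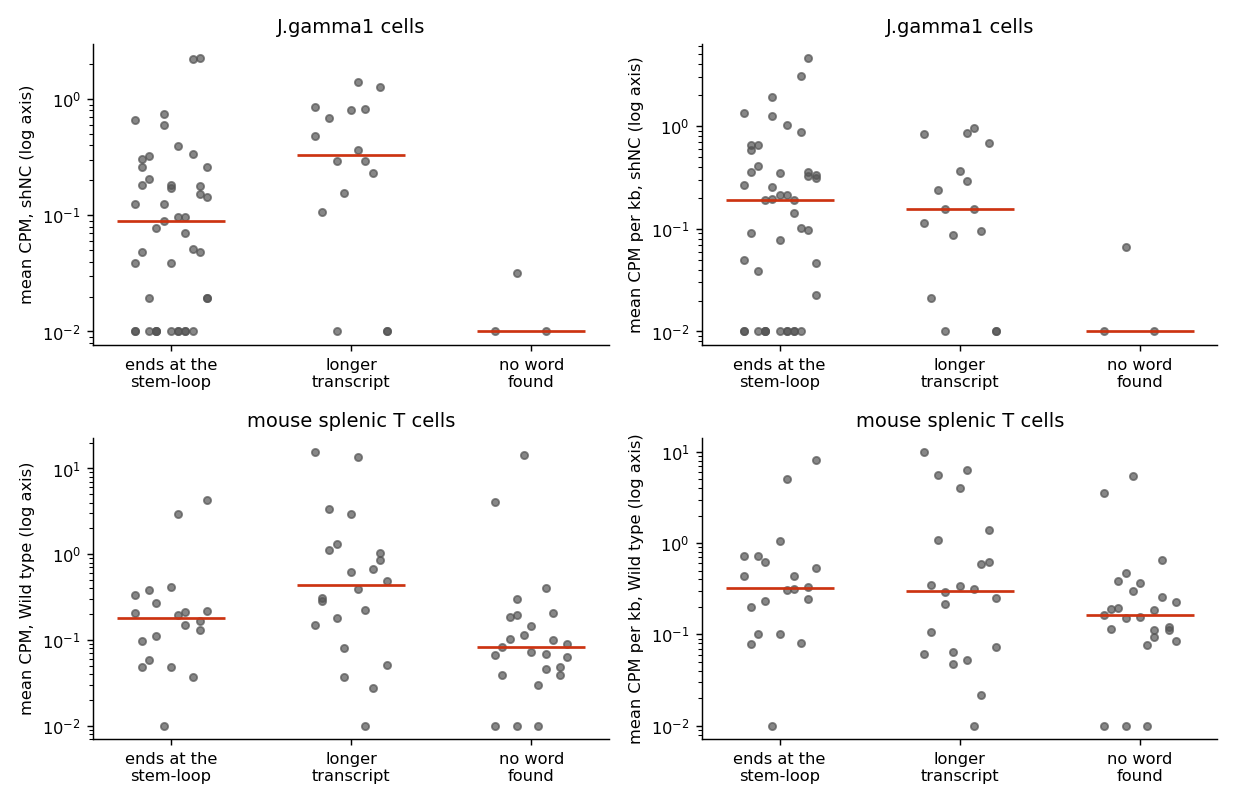
Mean level of each member in the control libraries, as CPM (left) and as CPM per kb of annotated exon (right), both on log axes, for members whose transcripts end at the stem-loop, have a longer transcript or hold no stem-loop word. Points are members, red lines are medians and levels below 0.01 are drawn at 0.01. The human longer group has the higher median as CPM (0.33 against 0.0902) but not per kb (0.156 against 0.191).

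The comparison of shIRF2BP2 with shNC asks what IRF2BP2 knockdown does to these genes in T-ALL cells. No member was called in either direction by edgeR's quasi-likelihood test (adjusted p under 0.05, log2 fold change at or beyond 0.5 in size), where 5.46% of the 15819 genes tested were called higher and 5.01% lower. DESeq2 also called 0, and 1 of the 19 members tested had an unadjusted p under 0.05 in edgeR. That member was H2AC20, an H2A gene at chr1:149886918-149887411, with 6 and 13 counts in shNC and 32 and 20 in shIRF2BP2 (0.232 and 0.419 against 1.10 and 0.678 CPM). Its log2 fold change was 1.42 (95% interval 0.06 to 2.78, edgeR adjusted p = 0.16). Its stem-loop word, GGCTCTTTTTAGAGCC, was shared with no other human member.

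Summed over all members, the level was 18.5 and 18.3 CPM in the shNC libraries and 24.6 and 23.9 CPM in the shIRF2BP2 libraries (18.4 ± 0.14 against 24.2 ± 0.501 CPM, SD, n = 2 each, a ratio of 1.31). The groups did not overlap in this sum. By class, the H2A sum was 5.21 and 4.48 CPM in shNC against 8.11 and 7.06 CPM in shIRF2BP2, a ratio of 1.56, and the H4 sum was 2.70 and 2.1 against 3.33 and 3.6 CPM, a ratio of 1.44. The H2B sum also did not overlap, at 7.69 and 6.70 against 7.80 and 8.51 CPM. The H1 sum (2.01 and 3.38 against 3.74 and 2.85 CPM) and the H3 sum (0.927 and 1.68 against 1.61 and 1.87 CPM) overlapped between the groups. With 2 libraries in each group, 58.3% of all genes tested did not overlap either. The H3 and H4 sums hold both copies of near-identical pairs, such as H4C14 and H4C15. These sums are given as a description, and no test of them was made.

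**Figure D3:**
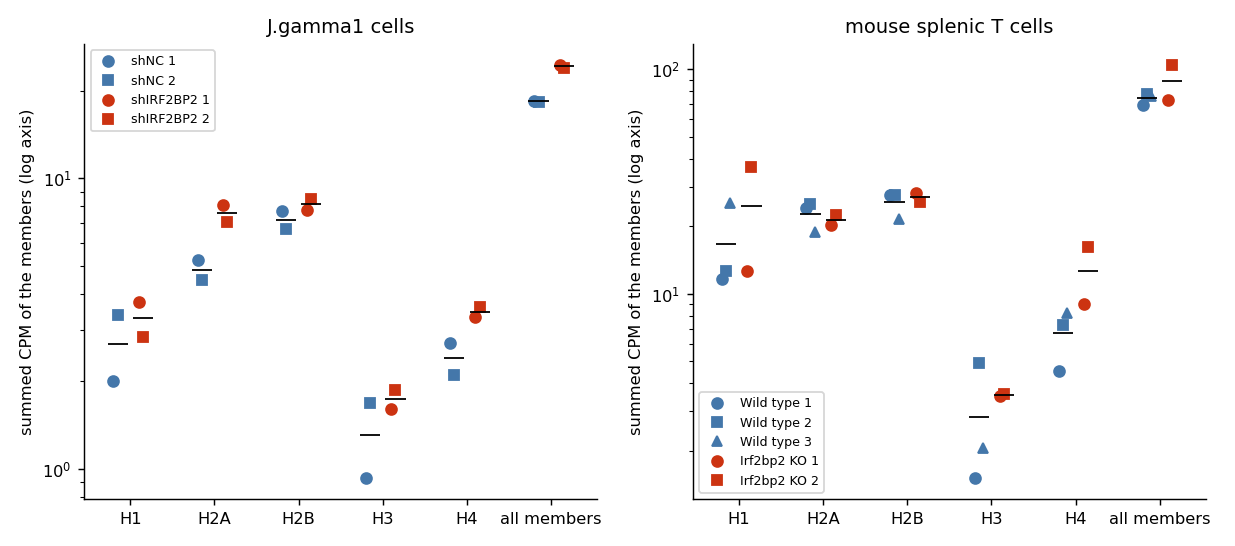
Summed CPM (log axis) of the H1, H2A, H2B, H3, H4 and all members in each library, with 1 symbol per library and black lines at the group means. In J.gamma1 cells the H2A, H2B, H4 and total sums do not overlap between shNC and shIRF2BP2, and in mouse T cells only the H4 sum does not overlap, at 4.53 to 8.20 CPM in Wild type and 8.98 and 16.2 CPM in Irf2bp2 KO. Of all genes tested, 58.3% in J.gamma1 cells and 36% in mouse T cells do not overlap.

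Of the 19 members tested, 16 had a fitted log2 fold change above 0 and 3 below, where 50.6% of all genes tested were above 0, and their median was 0.38 where that of all genes was 0.007. A member low in both groups could enter the test only through the group where it was higher, so these numbers describe the genes that passed the filter and not the 64. The groups did not overlap in 13 of the 19, 10 of them higher and 3 lower in shIRF2BP2, beside 58.3% of all genes tested, 29.6% higher and 28.7% lower. The higher ones included H2AC11 (0.850 and 0.483 against 1.20 and 1.59 CPM, log2 fold change 1.08, SE 0.49, edgeR adjusted p = 0.20), H2BC5 (0.93, SE 0.42, adjusted p = 0.19) and H4C14 (1.08, SE 0.61, adjusted p = 0.29). In its shortest coding transcript (396 bases, where its annotated exons total 1878), H4C14 shared 100% of its 150-base windows with its neighbour copy H4C15. Reads within that stretch cannot be assigned to 1 of the copies, and the rest of the exons was not compared. The counts of the copies ran together at 6, 11, 14 and 23 against 6, 11, 13 and 22, so the pair is not taken as evidence from 2 genes. H2AC6 (0.67, SE 0.36, adjusted p = 0.28), H2AC25 (0.64, SE 0.37, adjusted p = 0.30), H2BC11 (0.38, SE 0.44, adjusted p = 0.63) and H2BC4 (0.31, SE 0.47, adjusted p = 0.71) were higher in both knockdown libraries than in both controls without passing the edgeR test. The 3 lower ones were H2AC17 (0.695 and 0.516 against 0.343 and 0.136 CPM, log2 fold change -1.32, SE 0.67, edgeR adjusted p = 0.25), H4C9 (0.695 and 0.806 against 0.137 and 0.543 CPM, -1.13, SE 0.69, adjusted p = 0.33) and H2BC12 (-0.295, SE 0.33, adjusted p = 0.61). H2AC17 had 58.3% of its 150-base windows in the overlapping gene H3C12, which went the other way, with 1 and 0 counts in shNC and 8 and 4 in shIRF2BP2. How reads were split between these 2 genes is not given. H1-2 (0.35, SE 0.38, adjusted p = 0.60) and H2BC21 (0.08, SE 0.66, adjusted p = 0.95) overlapped between the groups. The 95% intervals reached from 0.77 to 2.70 on either side of the log2 fold change, so a member changed by less than that could not have been told from no change at this depth.

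All 11 tested members with a longer annotated transcript had a fitted fold change above 0 (median 0.64 on the log2 scale), beside 50.6% of all genes tested. They are the members that passed the filter on low counts, and they include H4C14 and H4C15, which are not evidence from 2 genes. The value of H2BC21 (0.08) turned to -1.08 without shIRF2BP2 replicate 2, to -0.239 without shNC replicate 2 and to -0.056 with a replicate block. The sum of the whole longer group was 7.41 to 8.19 CPM in shNC and 11.8 to 12.1 CPM in shIRF2BP2. Of the 8 tested members that end at the stem-loop, 5 were above 0 and 3 below, with a median of 0.18, and their group sum was 10.4 to 10.9 against 11.8 to 12.7 CPM. The difference between these 2 sets was not tested. RNAs that carry no poly(A) tail, TERC, RMRP, RPPH1 and RNU7-1, summed to 0.154 to 0.355 CPM in shNC and 0.137 to 0.271 CPM in shIRF2BP2. They therefore gave almost no counts in either group, and none reached the test.

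**Figure D4:**
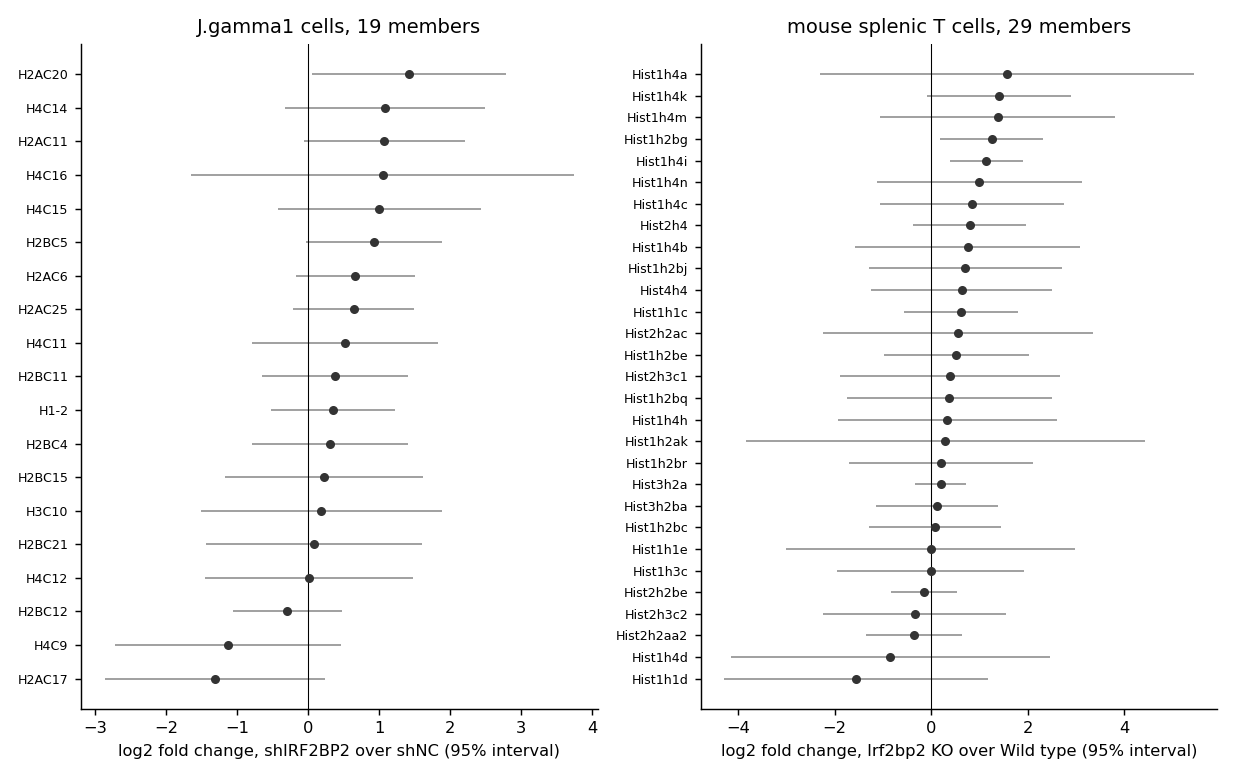
Fitted log2 fold change of each tested member with its 95% interval, for shIRF2BP2 over shNC (left, 19 members) and Irf2bp2 KO over Wild type (right, 29 members). Hist2h2aa1, with a count of 0 in both knockout libraries, is left out because its fitted value is no bound. The interval leaves out 0 for H2AC20, Hist1h4i and Hist1h2bg.

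Among the genes that act on histone mRNA, SLBP, which binds the stem-loop and escorts the mRNA through processing and translation, was the only one of 30 tested that was called. It fell from 196 and 208 CPM in shNC to 139 and 127 CPM in shIRF2BP2 (edgeR log2 fold change -0.605, SE 0.12, adjusted p = 0.02), and 0 of the 30 were called higher, while 13 had a fitted fold change above 0. The summed level of the members stood higher in the libraries in which SLBP was lower, which holds as well for any other gene lower in both of them. A link between SLBP and that sum was not tested. NPAT, the activator of these genes (0.09, SE 0.13, adjusted p = 0.70), CASP8AP2, its partner in the histone locus body (0.26, SE 0.17, adjusted p = 0.38), and the U7 particle proteins LSM10 (-0.22, SE 0.16, adjusted p = 0.43) and LSM11 (0.41, SE 0.14, adjusted p = 0.093) did not pass the edgeR test. The median of the 30 was -0.009.

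The replication-independent histone genes moved in both directions. H2AZ1 fell from 527 and 568 to 396 and 372 CPM (log2 fold change -0.512, SE 0.13, edgeR adjusted p = 0.04), and its paralog H2AZ2 rose from 234 and 237 to 398 and 370 CPM (0.70, SE 0.12, adjusted p = 0.011). The summed level of the list hardly differed, at 2450 to 2580 CPM in shNC and 2450 to 2520 CPM in shIRF2BP2. Members of the list that were not called included H3-3A (-0.274, SE 0.13, adjusted p = 0.20) and H3-3B (0.06, SE 0.13, adjusted p = 0.82), which make histone H3.3, the damage-marking H2AX (0.09, SE 0.14, adjusted p = 0.71), the linker H1-10 (-0.034, SE 0.15, adjusted p = 0.91) and the centromeric CENPA (-0.178, SE 0.13, adjusted p = 0.42).

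Histone chaperones were called lower in 5 of 30 and higher in 2 of 30, with a median log2 fold change of -0.173. The lower ones were RBBP4 (-1.17), DNAJC9 (-1.03), ASF1B (-0.911), SSRP1 (-0.53) and CHAF1B (-0.522), all with edgeR adjusted p of at most 0.039, and ASF1B and CHAF1B hand new H3 and H4 to replicating DNA. UBN2 (1.21) and CABIN1 (0.53), subunits of the HIRA complex that deposits H3.3, were the higher ones, with adjusted p = 0.016 and 0.031. S phase genes were lower in 7 of 43 and higher in 0, with a median of -0.311, among them PCNA (465 to 229 CPM on average), CCNE2 (72.2 to 35.3), DSCC1 (81.0 to 30.4), UNG, FEN1, SLBP and CHAF1B, the last pair counted in 2 lists each. Of 53 tested G2/M genes, HMMR, CDK1, CBX5, TMPO, DLGAP5 and RANGAP1 were lower, CKAP5 was higher, and the median was -0.175. In these bulk samples fewer cells in S phase and less RNA per cell cannot be told apart, and the part of cell cycle genes in the histone values was not tested.

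In mouse T cells the members were more fully represented. They held 2578, 2804 and 1217 counts in the Wild type libraries and 2811 and 3722 in the Irf2bp2 KO libraries, that is 0.00694, 0.00768, 0.0073, 0.00756 and 0.0106% of all counts. Of the 67 genes, 2 had no count, 9 more had fewer than 10 counts in all and 38 reached 10 counts in at least 1 library. The counts were concentrated in a few genes, with Hist1h1c, Hist3h2a and Hist2h2be holding 51.8 to 65.1% of the members' CPM and the 10 highest holding 79.8 to 91.7%. The median member stood at 0.165 CPM. Per kb, Hist1h1c reached 10 CPM in Wild type, against 144 CPM per kb for H3f3b (histone H3.3) and 103 CPM per kb for H2afz (H2A.Z).

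Hist1h1c, which codes for linker histone H1.2, had 11.4, 12 and 23.4 CPM in the Wild type libraries and 12.3 and 35.4 CPM in the Irf2bp2 KO libraries. Wild type replicate 3 and Irf2bp2 KO replicate 2 were both far above the other 3, so that the groups overlapped (log2 fold change 0.62, SE 0.50, edgeR adjusted p = 0.62). The same libraries were the highest for the H1 sum, at 25.5 and 36.8 CPM against 11.7, 12.7 and 12.6 CPM in Wild type 1, Wild type 2 and Irf2bp2 KO 1. Of the 65 members with a count, 30 (46.2%) were highest in Irf2bp2 KO replicate 2. The same share over all genes was not computed, so the number cannot be read as particular to the members. Many of them also have few counts or share windows with each other. Hist3h2a, an H2A gene on chromosome 11 with a transcript that runs 1643 bases past its stem-loop, had 16.8, 12.7 and 11.4 CPM in Wild type and 15.2 and 16.2 CPM in Irf2bp2 KO (0.20, SE 0.22, adjusted p = 0.74). Hist2h2be, an H2B gene on chromosome 3, had 17.1, 15.5 and 10.1 CPM in Wild type and 15 and 10.7 CPM in Irf2bp2 KO (-0.15, SE 0.29, adjusted p = 0.86). Both stayed within the spread of the Wild type libraries.

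The remaining members of high level were Hist1h2bc (1.88 to 7.50 CPM in Wild type, 4.07 and 4.62 CPM in Irf2bp2 KO), Hist3h2ba (1.52 to 5.16 against 4.49 and 2.96 CPM) and Hist1h2be (0.692 to 2.44 against 1.72 and 1.89 CPM), all H2B genes whose groups overlapped. Compared per kb in Wild type, the leading gene of each class with less than 50% of its 150-base windows in other genes was Hist1h1c for H1 (10 ± 4.32 CPM per kb, SD, n = 3), Hist3h2a for H2A (6.35 ± 1.31), Hist3h2ba for H2B (5.56 ± 2.97), Hist1h4i for H4 (4.02 ± 0.885) and Hist1h3c for H3 (0.308 ± 0.194). The first 4 did not differ from their neighbours in this order by more than their spread, and Hist1h3c lay below all of them. As in the human cells, members with a longer annotated transcript (22 of 67) had the higher median as CPM, 0.438 against 0.181 for the 20 that end at the stem-loop, and not per kb, 0.303 against 0.323, and they held 58.4% of the members' CPM.

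The comparison of Irf2bp2 KO with Wild type asks what loss of Irf2bp2 does in splenic T cells. By edgeR's quasi-likelihood test (adjusted p under 0.05, log2 fold change at or beyond 1 in size), 0 of 30 tested members were called higher, where 2.47% of 15350 genes were, and 1 was called lower, where 0.111% were. An unadjusted p under 0.05 was found for Hist2h2aa1, Hist1h4i and Hist1h2bg, 3 members in all, and DESeq2 called 1 higher and 1 lower. The member called lower was Hist2h2aa1, an H2A gene at chr3:96245497-96246082, with 115, 156 and 24 counts in Wild type and 0 in both knockout libraries (3.10, 4.32 and 1.5 against 0 CPM, edgeR adjusted p = 0.018). With the 3 counts that a total of 0 allows taken over both knockout libraries, its counted level was at least 73.2-fold below the Wild type mean of 2.97 CPM. That bound covers counting error in the knockout libraries only. It takes the Wild type mean as exact and the split of reads between copies as given.

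This call depended on a near-identical neighbour. Hist2h2aa2, at chr3:96239749-96240276 on the opposite strand, codes for the same class, carries the same stem-loop word and flanks in the lines above, and had 100% of its 150-base windows also in other genes, where Hist2h2aa1 had 87.0%. Hist2h2aa2 had 127, 232 and 47 counts in Wild type and 142 and 106 in Irf2bp2 KO (3.43, 6.42 and 2.94 against 3.71 and 2.99 CPM, log2 fold change -0.356, SE 0.42, edgeR adjusted p = 0.75). With the counts of the pair summed, the level was 6.53, 10.7 and 4.44 CPM in Wild type and 3.71 and 2.99 CPM in Irf2bp2 KO (7.24 ± 3.20, SD, n = 3, against 3.35 ± 0.51, n = 2). The groups still did not overlap, but the log2 fold change was -1.12 (SE 0.42) and the edgeR adjusted p was 0.26, so the call was lost. The sum was chosen after the values had been seen. It leaves out Gm20634, an annotated gene in which windows of both copies also occurred. Without Wild type replicate 1, Irf2bp2 KO replicate 1 or Irf2bp2 KO replicate 2, the adjusted p of Hist2h2aa1 alone was 0.089, 0.078 and 0.10. How the deposited counts split reads between the copies and Gm20634 is not given in the sources used here.

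**Figure D5:**
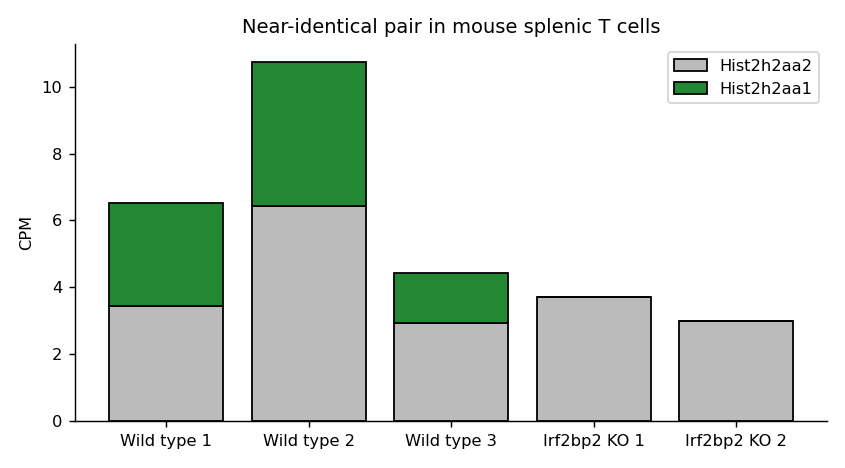
CPM of the near-identical genes Hist2h2aa1 (green) and Hist2h2aa2 (gray), stacked, in each of the 5 mouse libraries. Hist2h2aa1 has a count of 0 in both Irf2bp2 KO libraries, and the stacked heights are 4.44 to 10.7 CPM in Wild type and 3.71 and 2.99 CPM in Irf2bp2 KO.

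Of the 5 classes, the H4 genes had the largest ratio of knockout to Wild type sums. Their sum was 4.53, 7.30 and 8.20 CPM in Wild type and 8.98 and 16.2 CPM in Irf2bp2 KO (6.68 ± 1.91 against 12.6 ± 5.08 CPM, a ratio of 1.88), which did not overlap, and 10 of the 11 tested H4 genes had a fitted fold change above 0, with a median of 0.85. This rested on Irf2bp2 KO replicate 2 and on 1 gene: all 11 were above their Wild type mean in Irf2bp2 KO replicate 2, but 5 were in Irf2bp2 KO replicate 1. Without Hist1h4i the H4 sums were 2.11, 3.65 and 5.5 CPM in Wild type and 3.48 and 8.68 CPM in Irf2bp2 KO, and they overlapped. Hist1h4i led them, with 90, 132 and 43 counts in Wild type and 211 and 266 in Irf2bp2 KO. That is 2.43, 3.65 and 2.69 CPM against 5.51 and 7.49 CPM. Both knockout libraries lay above all 3 controls, with a log2 fold change of 1.15 (95% interval 0.39 to 1.91, edgeR adjusted p = 0.14), and DESeq2 called the gene higher (1.15, adjusted p = 0.03). Across the edgeR alternatives its adjusted p ranged from 0.073 to 0.74. Hist1h4i shared 2.1% of its windows with other H4 genes, and its longest model runs 330 bases past the stem-loop printed above.

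The groups did not overlap in 5 of the 30 tested members, 4 higher and 1 lower in Irf2bp2 KO, beside 36% of all genes tested (18.2% higher and 17.8% lower). Besides Hist1h4i and Hist2h2aa1 these were the H2B gene Hist1h2bg (0.702, 1.08 and 0.813 against 1.49 and 2.68 CPM, log2 fold change 1.26, SE 0.45, edgeR adjusted p = 0.24), and the H4 genes Hist1h4k (1.40, SE 0.63, adjusted p = 0.34) and Hist2h4 (0.80, SE 0.49, adjusted p = 0.50), the last chosen after its values were seen. Hist1h2bg shared 39.0% and Hist1h4k 53.4% of their windows with other members. The largest fitted rises were those of the H4 genes Hist1h4a (1.57, SE 1.62, adjusted p = 0.71), Hist1h4k and Hist1h4m (1.38, SE 1.02, adjusted p = 0.59). The largest fitted falls, apart from Hist2h2aa1, were those of the linker gene Hist1h1d (-1.56, SE 1.14, adjusted p = 0.58) and of Hist1h4d (-0.843, SE 1.38, adjusted p = 0.83). Hist1h4a, Hist1h4m, Hist1h1d and Hist1h4d had fewer than 10 counts in at least 1 library of each group, and their groups overlapped. Hist1h3c (-0.011, SE 0.81, adjusted p = 1.0), Hist1h2be (0.53, SE 0.63, adjusted p = 0.75), Hist3h2ba (0.13, SE 0.53, adjusted p = 0.94) and Hist1h2bc (0.08, SE 0.58, adjusted p = 0.97) were not called either.

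Over all members the sum was 69.6, 77.6 and 76.1 CPM in Wild type and 73.4 and 105 CPM in Irf2bp2 KO (74.4 ± 4.25, n = 3, against 89.1 ± 22.2, n = 2). The groups overlapped, and only Irf2bp2 KO replicate 2 exceeded the Wild type libraries. Without Hist1h1c the sums were 58.1, 65.6, 52.7, 61.1 and 69.5 CPM in the same order, and Irf2bp2 KO replicate 2 was again the highest. Of the tested members 22 were above 0 and 8 below, and their median was 0.38 beside -0.018 for all genes, of which 47.9% were above 0. Here too a member low in both groups could enter the test only through the group where it was higher. These numbers therefore describe the 30 genes that passed the filter and not the 67. The median was -0.043 without Irf2bp2 KO replicate 2 and 0.66 without Irf2bp2 KO replicate 1, so its direction rested on 1 library. The H2A sum (18.9 to 25.1 against 20.2 and 22.5 CPM), the H2B sum (21.5 to 27.6 against 28.1 and 25.8 CPM) and the H3 sum (1.51 to 4.90 against 3.50 and 3.58 CPM) overlapped. The 95% intervals reached from 0.53 to 4.14 on either side of the log2 fold change.

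In the same fit, cell cycle genes were higher in the knockout. S phase genes were called higher in 14 of 43 and lower in 0, with a median of 0.87, among them Rrm1 (60.4 to 182 CPM on average, 1.59, SE 0.12, edgeR adjusted p = 0.0054), Rrm2 (25.1 to 144 CPM), Mcm5, Pola1, Uhrf1, Fen1, Hells, Blm, Dtl, Clspn, Ccne2, Cdc6, E2f8 and Rad51ap1. Of 54 G2/M genes, 12 were called higher, with a median of 1.51, among them Mki67 (64.1 to 442 CPM), Top2a (56.8 to 213 CPM), Kif11, Tpx2, Cenpf, Cenpe, Ect2, Anln, Hmmr, Ckap2l, Dlgap5 and Kif20b. Chaf1a, a subunit of the chaperone that loads new H3 and H4 at replication forks, was the only one of 31 histone chaperones called (5.79 to 31 CPM, 2.40, SE 0.36, adjusted p = 0.023). Members of the S phase list were thus called where no histone member was called higher by edgeR. The median histone member stood at only 0.165 CPM, and the 95% intervals of those tested reached from 0.53 to 4.14 on either side. A rise of the size of the S phase median could therefore have been missed in many of the histone members, but not in all. Of the 3 members of highest level, the 95% intervals of Hist3h2a (-0.33 to 0.73) and Hist2h2be (-0.84 to 0.54) ended below 0.87. That of Hist1h1c (-0.56 to 1.8) did not.

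None of the 28 tested genes of histone mRNA processing was called by edgeR. Slbp stood at 57.9, 75.1 and 55.1 CPM in Wild type and at 92.8 and 110 CPM in Irf2bp2 KO, without overlap (0.69, SE 0.17, edgeR adjusted p = 0.10). Npat (0.08, SE 0.17, adjusted p = 0.88), Casp8ap2 (0.24, SE 0.18, adjusted p = 0.59), Lsm10 (-0.318, SE 0.30, adjusted p = 0.68) and Lsm11 (-0.225, SE 0.16, adjusted p = 0.56) did not pass the edgeR test. Of the 10 tested variant histone genes 0 were called, and their sum was 1290 to 1810 CPM in Wild type and 1430 to 1720 CPM in Irf2bp2 KO. Among them were H3f3a (-0.184, adjusted p = 0.78), H3f3b (0.21, adjusted p = 0.73), H2afz (0.29, adjusted p = 0.61), H2afx (0.22, adjusted p = 0.79), H1fx (2.25, adjusted p = 0.19) and Cenpa (0.56, adjusted p = 0.29). RNAs without a poly(A) tail (Terc, Rmrp, Rn7sk and Rpph1) summed to 1.13 to 2.31 CPM in Wild type and 1.15 to 1.97 CPM in Irf2bp2 KO. Rn7sk was highest, at 1.75 CPM, in Wild type replicate 3, the shallowest library. Hist1h1c was also high there, at 23.4 CPM, but was highest, at 35.4 CPM, in Irf2bp2 KO replicate 2, and a link between the 2 RNAs was not tested.

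Markers of other cell types differed between the mouse groups and stand beside these values. Of 14 tested erythroid precursor genes, 7 were called higher in Irf2bp2 KO and 0 lower, and the list summed to 653 to 2350 CPM in Wild type and 5040 to 7030 CPM in Irf2bp2 KO. The defining regulators Gata1 and Klf1 were at 7.07 to 16.3 and 3.82 to 11.8 CPM in Wild type and at 38.5 to 49.1 and 43.4 to 53.2 CPM in Irf2bp2 KO, and no gene of the list was at 0. The 10 B cell and plasma cell genes summed to 1700 to 2940 against 4960 to 6970 CPM, with Ighm and Prdm1 called higher. As a set they did not move together, since 5 had a fitted fold change above 0 and 5 below, with a median of -0.217. The 8 myeloid genes summed to 38.4 to 391 against 86.7 to 142 CPM with 0 called, and the 8 T cell genes to 3450 to 4250 against 2630 to 2840 CPM with 0 called. The part of these cells in the H4, Hist1h4i and Hist1h2bg values was not tested.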

How the data were processed

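Total RNA of 4 J.gamma1 and 5 mouse T cell libraries was sequenced as pairs of 150-base reads. The authors deposited 1 table of raw gene counts for each species, made after alignment with HISAT2 2.2.0 to hg38 or mm10 and gene quantification with StringTie. Strand use and the treatment of reads that match several genes are not given in the sources used here. 0 columns were left unmapped.

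Rows with an identifier in GENCODE v44 or vM21 held 98.0% of the human and 99.8% of the mouse counts, and the others were left out of library sizes and tests. Counts were scaled by TMM, filtered with filterByExpr and tested with edgeR 4.0.16 (quasi-likelihood F-test, R 4.3.3) over all genes of a table, with Benjamini-Hochberg adjustment and condition as the only term. A call needed a log2 fold change of 0.5 (J.gamma1) or 1 (mouse) in size at an adjusted p under 0.05. The biological coefficient of variation was 0.165 and 0.271, on 2 and 3 residual degrees of freedom. DESeq2 1.42.0, other scalings and filters, a replicate block and leaving out each library were the alternatives. On simulated data, 147 of 200 (J.gamma1, 15517 genes) and 97 of 200 (mouse, 15048 genes) changed genes were recovered with 2 and 4 false calls. No 2 replicates matched within counting noise (chi-square per gene at least 19.5).

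Text names were taken by rule: members called, the 10 of highest mean CPM, the 3 largest rises and falls, the leading gene per kb of each class, and list genes called. Members and lists were chosen with earlier results of these data known. Log2 fold changes are those fitted by edgeR, and standard errors were derived from its F statistic. Some genes of the companion lists are not reported here.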

Additional observations from a re-analysis of the deposited data

How the results depend on the processing

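In J.gamma1 cells 0 members were called in either direction under every alternative that kept all libraries, and 0 to 1 were called higher when 1 library was left out. The 1 was H4C16 without shNC replicate 1, where the single remaining control is assumed to vary like the knockdown pair and has a count of 0, beside 12 counts in the library left out. The median log2 fold change of the tested members was 0.445 to 0.687 when 1 library was left out, with 23 to 25 members tested. In mouse T cells DESeq2 called 1 member higher (Hist1h4i). The 1 member called lower, Hist2h2aa1, went to 0 with its copy summed, and to 0 under a minimum of 10 counts in every library, which its counts of 0 cannot pass. The count called lower was 0 to 1 when 1 library was left out, being 0 without Wild type replicate 1, Irf2bp2 KO replicate 1 or Irf2bp2 KO replicate 2. The mouse median was -0.043 to 0.66 when 1 library was left out, below 0 only without Irf2bp2 KO replicate 2. All other values of these counts and medians stayed within 1.5 times or the spread between replicates.

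Fitted log2 fold changes of uncalled members turned in direction when 1 library was left out for H1-2 (-0.012 to 0.85), H2BC21 (-1.08 to 0.69), Hist1h1c (-0.358 to 1.17), Hist1h2bc (-0.263 to 0.87), Hist1h3c (-0.966 to 0.57), Hist1h4d (-7.41 to 0.13), Hist1h4m (-0.394 to 2.11), Hist2h2aa2 (-0.564 to 0.083), Hist2h2be (-0.433 to 0.051) and Hist3h2ba (-0.228 to 0.59). Hist1h3c also turned with DESeq2 (0.047) and with genes of at least 1 count kept (0.012). The causes were not tested.

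Deviations from the group mean in samples that share a replicate number correlated at 0.225 in J.gamma1 cells and at 0.151 and -0.161 in the mouse. The labels do not say that the numbers mark pairs, and the main fits did not use them. Whether they mark a shared batch in J.gamma1 cells was not tested. The replicate block left 0 members called in J.gamma1 cells (median 0.39), where calls over all genes went from 864 higher and 793 lower to 1293 and 1174. In the mouse the block left 0 members higher and 1 lower (median 0.45). It turned H2BC21 (-0.056) and Hist1h2bc (-0.108). Of 280 counts of companion-list genes under the alternatives, 54 moved by more than 1.5 times, 34 of them on leaving out 1 library. The low counts of most members limit every comparison here.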

Other observations

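The 2 tables differed in how many members could be told from their copies. The windows were taken from the shortest coding transcript of each member, or the shortest of any type for pseudogenes, and were searched in all annotated transcripts. Longer transcripts of a member were not cut into windows. By this measure 11 of 64 human and 22 of 67 mouse members had at least 50% of their 150-base windows in another gene, and 50 human but only 15 mouse members had none. H3C14 and H3C15, chosen after their values were seen, had the same counts as each other in all 4 J.gamma1 libraries, so that the pair carries the information of 1 gene.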
